A study of Homo sapiens with 6 samples.

Results

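The genes described here are 43 genes of mitosis and the spindle checkpoint, listed by name, out of 11963 genes whose RNA was read by Affymetrix arrays in 2 cell lines of human colon cancer. All 43 had at least 1 probe set annotated to no other gene, and each was represented by the probe set with the highest mean signal. HCT116, an established line from a human colorectal carcinoma, is called poorly metastatic in the labels and was read on 3 arrays. E1, also read on 3 arrays, is labelled as a metastatic line that was derived in vivo, and its cell line entry is HCT116 as well. No treatment, time point or genetic change is given for either line. The labels do not say whether the 3 arrays of a line came from separate cultures, so the p-values reflect only how these arrays varied, which may be technical.

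These genes run the last part of the cell cycle. CDK1 bound to B-type cyclins starts mitosis, the spindle checkpoint holds the cell until every chromosome is attached to spindle microtubules, and the anaphase-promoting complex (APC/C) with CDC20 then marks cyclin B and securin for destruction so that sister chromatids part. Most of their transcripts, though not all, accumulate in G2 and M phase under the transcription factors B-MYB and FOXM1, which act through the cell cycle genes homology region (CHR), and under NF-Y, which binds CCAAT boxes. In the colon they mark the dividing cells of the lower crypt and of carcinomas, and MKI67 is the usual stain for proliferation in pathology.

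The promoters show what the genes share in sequence. RefSeq promoter entries of assembly GRCh38.p14 (250 bases before to 50 after a transcript start) were found for 36 of the 43 genes, and AURKA, BIRC5, BUB3, FOXM1, TPX2, TTK and UBE2C had none. Each entry was searched on both strands for the usual CHR letters TTTGAA, for the palindromic variants of that element written TTCGAA or, with another middle, TTTAAA, and for the NF-Y box CCAAT. At least 1 set of CHR letters stood in an entry of 31 of the 36 genes (86.1%), against 25.5% of 9563 genes of the array with an entry and 25.1% of all 35116 promoter entries. CCAAT stood in 31 of 36 (86.1%), against 44.2% of the array's genes and 34.6% of all entries. CHR letters lay wholly within the 50 bases before the start in 19 of 36 (52.8%), against 5.16% of the array's genes and 4.53% of all entries. A gene counted if any of its entries matched, so the shares of all entries compare with the 47 entries of these genes. Of those, 37 (78.7%) held CHR letters, 37 (78.7%) held CCAAT, and 20 (42.6%) held CHR letters in the 50 bases before the start. Within that window there were 22 matches, whose first base lay from -47 to -13 with a median of -29, where -1 is the last base before the start. A match is a description of letters and not a measured binding site.

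These 5 promoters are printed because they belong to genes on which the values below turn: both mitotic cyclins of B type, PLK1 and MKI67, and MYBL2, which encodes B-MYB itself and held none of the letters searched. Each run gives the 150 bases before the transcript start, 5′ to 3′ on the strand of the gene, with CHR letters and CCAAT (or ATTGG, its reverse complement) in capitals. In MKI67 a CHR match and a reversed CCAAT overlap. The positions are chr5:69167000-69167149 (plus strand) for CCNB1, chr15:59104996-59105145 (plus) for CCNB2, chr16:23678739-23678888 (plus) for PLK1, chr10:128126424-128126573 (minus) for MKI67 and chr20:43666964-43667113 (plus) for MYBL2.
CCNB1: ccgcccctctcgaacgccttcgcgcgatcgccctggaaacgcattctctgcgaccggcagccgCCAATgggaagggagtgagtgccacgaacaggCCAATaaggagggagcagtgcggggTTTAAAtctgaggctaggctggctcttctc
CCNB2: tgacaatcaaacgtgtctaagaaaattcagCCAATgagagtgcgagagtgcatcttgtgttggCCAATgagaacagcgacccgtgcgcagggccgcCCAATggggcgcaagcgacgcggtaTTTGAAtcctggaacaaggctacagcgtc
PLK1: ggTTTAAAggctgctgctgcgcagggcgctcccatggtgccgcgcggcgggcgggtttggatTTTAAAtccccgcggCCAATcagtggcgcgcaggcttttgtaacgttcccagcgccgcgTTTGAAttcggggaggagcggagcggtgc
MKI67: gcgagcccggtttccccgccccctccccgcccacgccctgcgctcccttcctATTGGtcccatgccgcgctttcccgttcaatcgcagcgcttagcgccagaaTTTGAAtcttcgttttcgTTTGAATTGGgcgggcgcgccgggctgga
MYBL2: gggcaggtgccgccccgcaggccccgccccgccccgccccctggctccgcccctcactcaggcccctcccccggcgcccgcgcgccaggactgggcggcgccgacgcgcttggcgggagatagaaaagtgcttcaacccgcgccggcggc

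**Figure D1:**
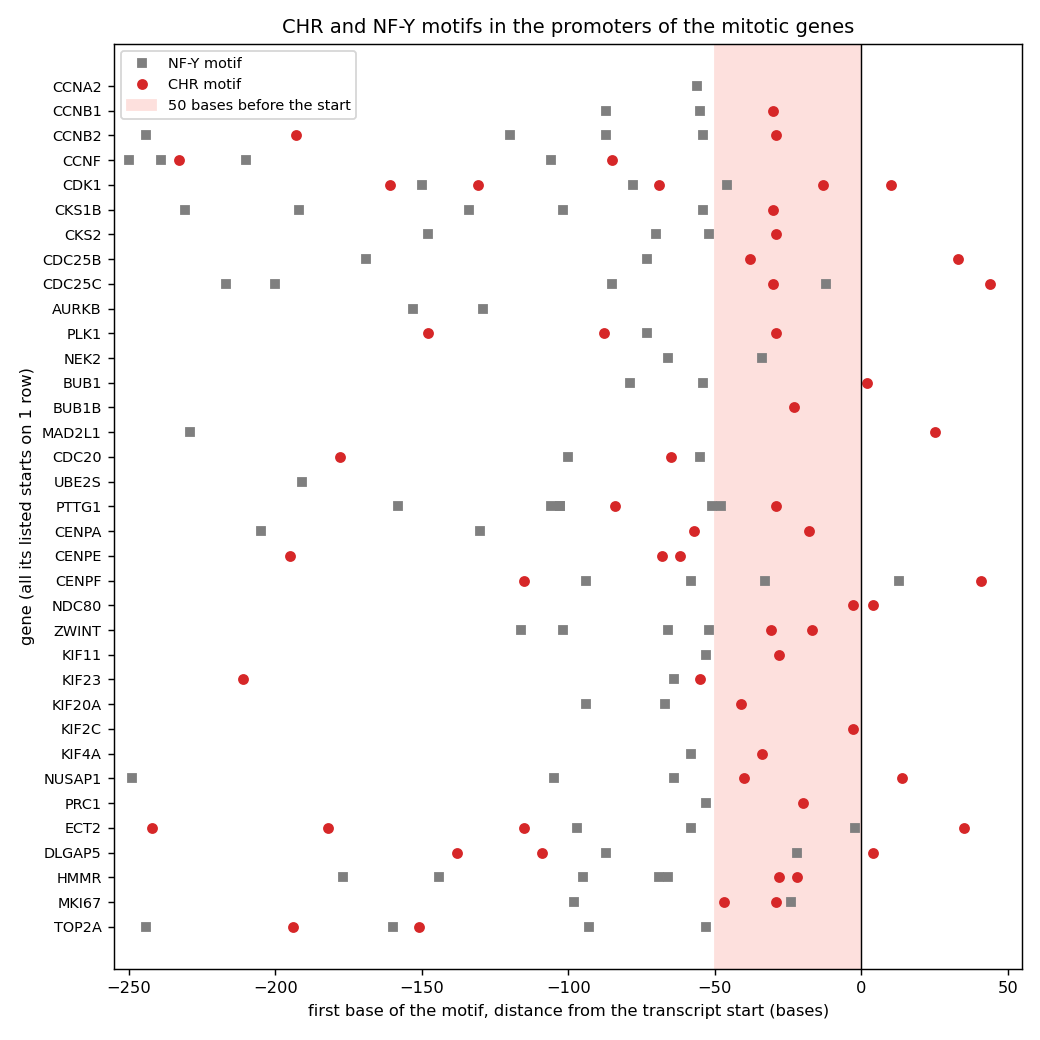
First base of each CHR motif (red circles) and NF-Y motif (grey squares, CCAAT boxes) in bases from the transcript start, for the 35 genes with a match; several listed starts of a gene share 1 row. Shading marks the 50 bases before the start, where 19 genes have a CHR motif, with a median position of -29.

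The arrays differed within each line. The signal ratio of the 3′ to the 5′ control probe set of GAPDH, a sign of RNA or cDNA integrity, was 0.774 to 0.811 in HCT116. In E1 it was 0.803 for array 1, 34.1 for array 2 and 71.9 for array 3. Values of E1 array 1 alone are therefore given beside those of all arrays for the members. Of 12 colon epithelium markers, EPCAM read 1885 to 2009 in HCT116 and 1691 to 3428 in E1, and KRT18 read 7509 to 8466 and 5677 to 6285. KRT8 read 3169 to 4693 in HCT116 and 2862, 372 and 103 in E1, and KRT19 read 3107 to 3952 and 3114, 2223 and 1172. The intestinal markers CDX1, CDX2 and VIL1 read at most 22.5 on any array. The summed signal of the 12 was 16910 to 19540 in HCT116 and 11720 to 14720 in E1, without overlap, and none of them was called. Over all genes the sum was 3957000 to 4295000 in HCT116 and 3601000 to 4250000 in E1. The log2 difference was above 0 for 4 of the 12 markers and below 0 for 8. Of markers of other cell types, PTPRC of leukocytes read at most 15.7, CDH5 of endothelium at most 3.25 and LUM of fibroblasts at most 2.96. Others of those lists read higher, with COL1A1 and ACTA2 up to 183 and 155, CD3E up to 132 and PECAM1 up to 63.2. The part of any of these markers in the results was not tested. The summed signal of 10 fibroblast markers was 497.9 to 570 in HCT116 and 362.4 to 606.3 in E1, that of 8 leukocyte markers 208.4 to 329.9 and 240.2 to 303.1, and that of 7 endothelial markers 116.4 to 162.5 and 117.9 to 170. In bulk RNA, fewer cells in mitosis and less mitotic RNA per cell cannot be told apart.

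No mitotic gene passed the test between the lines. None of the 43 was called over all genes at an adjusted p under 0.05 in limma, where 50 of 11963 genes (0.418%) were called. Those were 26 higher and 24 lower in E1, or 45 and 21 with array medians subtracted and 43 and 20 after quantile normalization. At an unadjusted p under 0.05 there were 5 of 43 (11.6%), all lower in E1, against 15.0% of all genes in either direction and 9.70% lower and 5.29% higher. These were UBE2S, MYBL2, PLK1, MKI67 and CDC25B. The median log2 difference, E1 minus HCT116 on the scale log2(intensity + 32), was 0.0085 over the 43 genes, from -3.85 to 0.56, with 22 above 0 and 21 below, and -0.0055 over all genes, of which 49.1% were above and 50.9% below. The arrays of the lines did not overlap for 3 of 43, MYBL2, CDC25B and CENPA, all lower in E1, against 10.7% of all genes lower without overlap, and for 0 of 43 higher, against 8.18%.

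What the mitotic genes did do was move together from array to array within a line. HCT116 array 2 was the lowest of the HCT116 arrays for 42 of 43 genes (97.7%), CDC25B being the exception, against 44.6% of all genes. Its log2 difference from the mean of HCT116 arrays 1 and 3 had a median of -0.89 over the 43 genes and of -0.053 over all genes. For 18 of 43 the gap was at least 1 on that scale, as it was for 1.19% of all genes (142), and a further 25 of those 142 were on the lists of related cell cycle genes described below. The GAPDH ratio of HCT116 array 2, 0.793, lay between those of the other HCT116 arrays.

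The E1 arrays were spread as widely. E1 array 2 was the highest of the E1 arrays for 38 of 43 genes (88.4%), against 23.4% of all genes, and the highest of all 6 arrays for 28 of 43, against 12.0%. Unlike the HCT116 arrays, E1 arrays 1, 2 and 3 differed widely in GAPDH ratio, at 0.803, 34.1 and 71.9. The part of that ratio in the spread of the E1 arrays was not tested. Relative to the HCT116 mean, the median of the 43 genes was 0.29, -0.59 and 0.34 on HCT116 arrays 1, 2 and 3, and -0.37, 0.62 and -0.13 on E1 arrays 1, 2 and 3. The corresponding medians of all genes lay between -0.047 and 0.052. The highest E1 array thus stood above every HCT116 array in the middle of the list, and the lowest E1 array stood between HCT116 array 2 and the other HCT116 arrays. For 38 of 43 genes (88.4%) the size of the difference between the lines was smaller than the log2 range over the HCT116 arrays, as for 68.1% of all genes. The median standard error of a difference was 0.38 for the 43 genes and 0.21 for all genes.

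**Figure D2:**
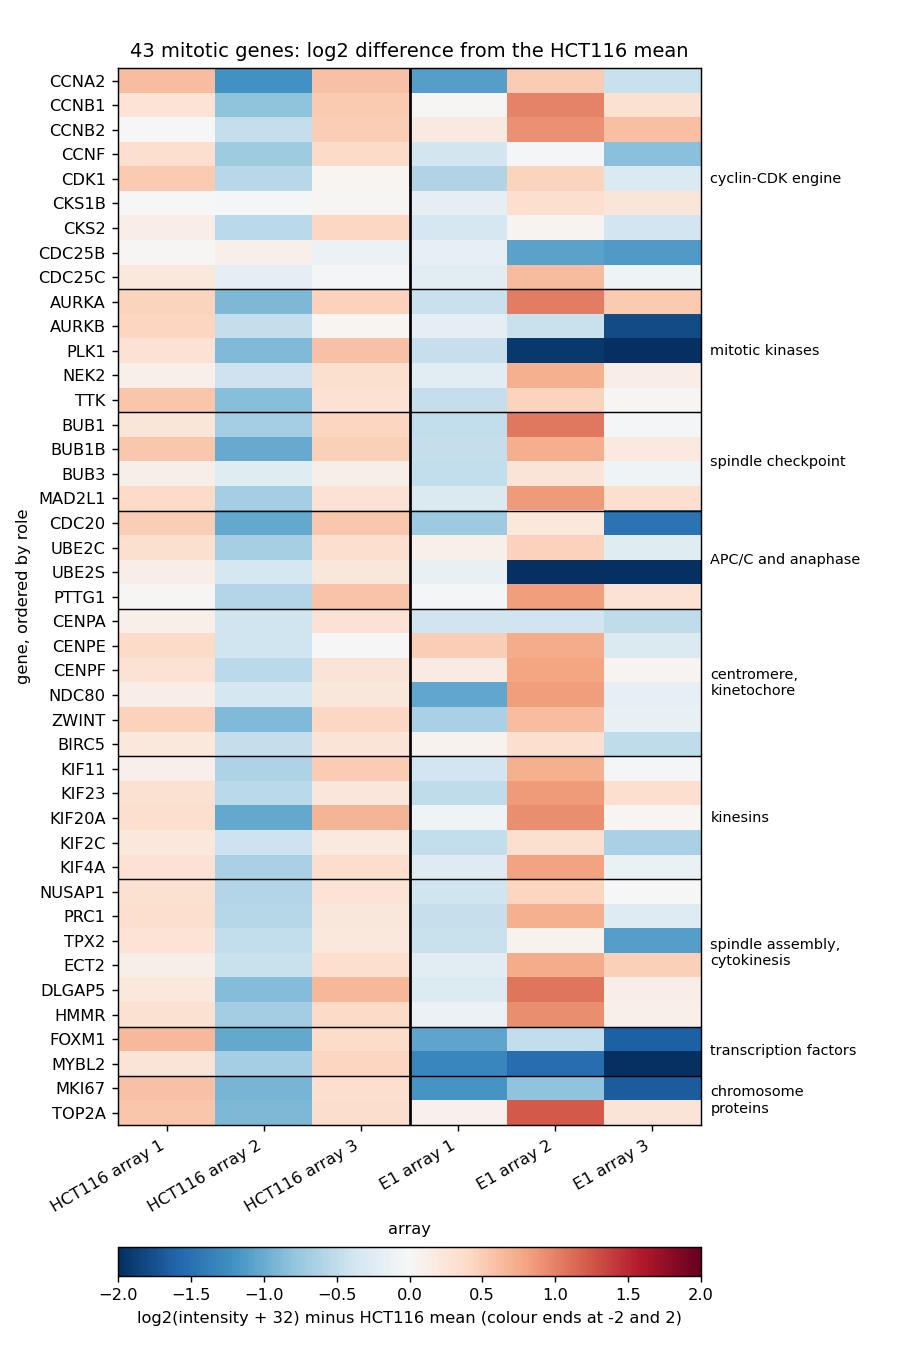
Log2 difference of each gene on each array from the mean of the 3 HCT116 arrays (columns are arrays, rows are the 43 genes grouped by role, blue below and red above that mean, colours ending at -2 and 2). HCT116 array 2 is the lowest HCT116 array for 42 of 43 genes, and E1 array 2 is the highest E1 array for 38 of 43.

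The reading of E1 depended on which of its arrays was used. On E1 array 1, with a GAPDH ratio like that of HCT116, 36 of 43 genes (83.7%) lay below the HCT116 mean, against 56.4% of all genes, with a median of -0.37 against -0.047. It lay below all 3 HCT116 arrays for 11 of 43 (25.6%, against 33.0% of all genes), above all 3 for 1 of 43 (2.33%, against 24.7%), and inside the HCT116 range for 31 of 43 (72.1%, against 42.2%). Tested alone with the spread of HCT116, E1 array 1 gave 0 called members and 1 at an unadjusted p under 0.05 in limma, against 0.0167% and 11.5% of all genes, 7.05% being lower. That member was NDC80. On the mean of E1 arrays 2 and 3, 29 of 43 (67.4%) lay above the HCT116 mean, against 52.2% of all genes, with a median of 0.23. That mean exceeded E1 array 1 for 31 of 43, against 54.8% of all genes, and lay at least 1 on the log2 scale below it for 2 of 43, PLK1 and UBE2S, against 5.89%. Without HCT116 array 2 the median of the 43 genes was -0.27, with 33 below 0 (76.7%, against 53.7% of all genes), 0 called, and 6 at an unadjusted p under 0.05 (14.0%, against 12.2%), all lower, as were 8.07% of all genes. Those were MKI67, FOXM1, CENPA, MYBL2, PLK1 and CCNF. The part of the GAPDH ratio, or of HCT116 array 2, in these differences was not tested.

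**Figure D3:**
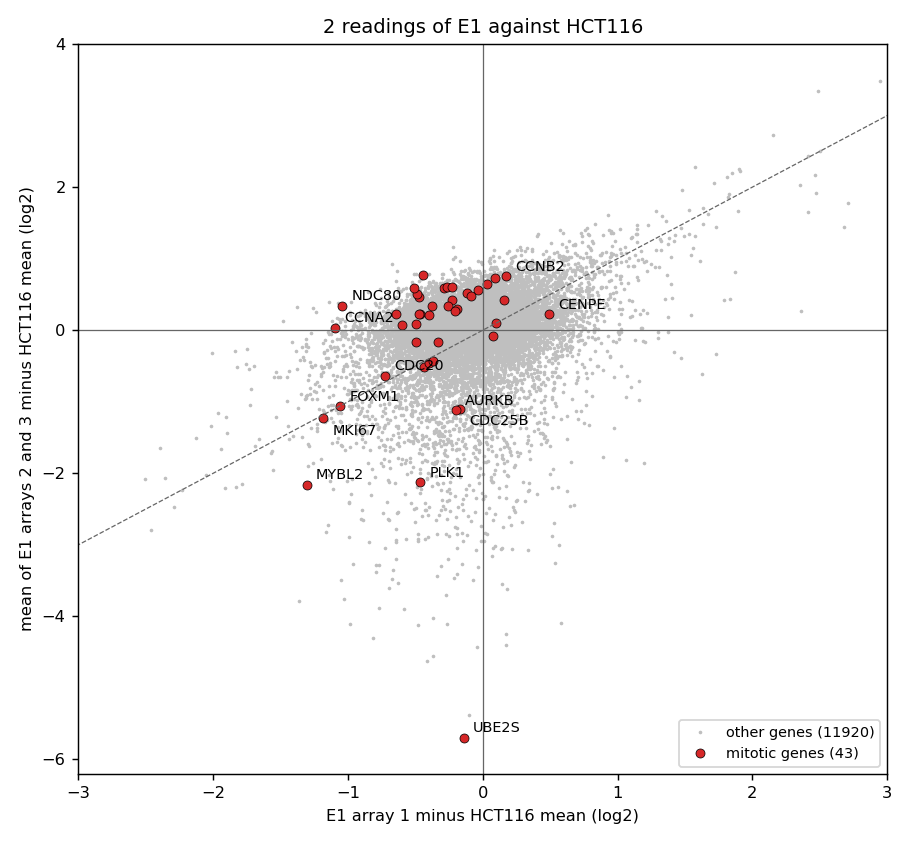
Log2 difference from the HCT116 mean on E1 array 1 (horizontal) and on the mean of E1 arrays 2 and 3 (vertical) for the 43 mitotic genes (red) and all other genes (grey); the dashed line marks equal values. Most mitotic genes lie left of 0 and above 0, MYBL2, MKI67 and FOXM1 are low on both axes, and UBE2S, PLK1, AURKB and CDC25B are low mainly on the vertical axis.

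Among the cyclins and their kinase, the B-type cyclins had the highest differences of the group, within the spread of the arrays. CCNB1, the cyclin that activates CDK1 at mitotic entry, read 1096, 503 and 1310.4 on HCT116 arrays 1, 2 and 3 and 919, 1818 and 1121 on E1 arrays 1, 2 and 3. The groups overlapped, and the log2 difference was 0.44 (SE 0.40, adjusted p = 0.676), or 0.029 with E1 array 1 alone. CCNB2, its close relative, read 736, 527 and 1057 in HCT116 and 843, 1424 and 1139 in E1. Its log2 difference of 0.56 (SE 0.30, adjusted p = 0.436) was the highest of the 43, and E1 array 1 alone gave 0.17. E1 array 1 lay inside the HCT116 range for both.

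CCNA2, the cyclin of S phase and G2, varied most among the HCT116 arrays. It read 1072, 278 and 1042 in HCT116 and 303, 991 and 494 in E1. HCT116 array 2 and E1 array 1 were thus the low arrays, and the log2 difference was -0.34 (SE 0.61), or -1.09 with E1 array 1 alone. CDK1, the mitotic kinase, read 1724, 793 and 1212 in HCT116 and 773, 1624 and 962 in E1, with a log2 difference of -0.15 (SE 0.36), or -0.60 with E1 array 1 alone, and overlap. The remaining CDK1 probe sets gave 0.20 and 0.014. CCNF, an F-box protein that carries a cyclin domain, stood at -0.41 (SE 0.35), or -0.37 with E1 array 1 alone.

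The CDK1 partners CKS1B and CKS2, small proteins that help the kinase bind substrates, stood at 0.13 (SE 0.17) and -0.22 (SE 0.27), or -0.19 and -0.33 with E1 array 1 alone. CKS1B was the steadiest of the 43 in HCT116, with 1856, 1823 and 1900.2, against 1628, 2363 and 2203 in E1. CDC25B, a phosphatase that activates CDK1, read 1344, 1414 and 1215 in HCT116 and 1175, 609 and 586 in E1. Every E1 array lay below every HCT116 array, and the log2 difference was -0.79 (SE 0.28, adjusted p = 0.28), or -0.17 with E1 array 1 alone. The related phosphatase CDC25C stood at 0.11 (SE 0.25), or -0.21 with E1 array 1 alone.

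Of the mitotic kinases, PLK1 had the largest difference, and most of it came from E1 arrays 2 and 3. PLK1, which drives centrosome maturation and mitotic entry, read 470.4, 191 and 581 in HCT116 and 265, 74.9 and 50.7 in E1. E1 array 1 stood between the HCT116 arrays while the other E1 arrays stood below all of them, and the log2 difference was -1.57 (SE 0.57, adjusted p = 0.293), or -0.46 with E1 array 1 alone. AURKB, the kinase of the chromosomal passenger complex, read 507, 254 and 379 in HCT116 and 316, 259 and 83.0 in E1, a log2 difference of -0.81 (SE 0.45, adjusted p = 0.454), or -0.20 with E1 array 1 alone. AURKB read below every HCT116 array on E1 array 3 only. AURKA, the spindle pole kinase, read 777, 287 and 789 in HCT116 and 407, 1179 and 829 in E1, with a log2 difference of 0.37 (SE 0.50), or -0.44 with E1 array 1 alone. Of the remaining kinases, the centrosomal NEK2 stood at 0.21 (SE 0.30) and the checkpoint kinase TTK at -0.0034 (SE 0.41), and E1 array 1 alone gave -0.23 and -0.47.

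On their main probe sets, the spindle checkpoint genes followed the common pattern of the arrays with little net difference. BUB1B, which encodes the checkpoint protein BUBR1, read 1009, 327 and 967 in HCT116 and 486, 1162 and 789 in E1, a log2 difference of 0.15 (SE 0.49). MAD2L1, which encodes MAD2, the protein that holds CDC20 inactive, read 1189.9, 559 and 1125 in HCT116 and 738, 1666 and 1159.6 in E1, a log2 difference of 0.30 (SE 0.39). BUB1, a kinetochore kinase, read 472, 234 and 542 in HCT116 and 272, 849 and 385 in E1, at 0.18 (SE 0.46). A second BUB1 probe set, described below, stood at -2.41, or -1.21 with E1 array 1 alone. BUB3, the scaffold that carries BUB1 and BUBR1, stood at -0.10 (SE 0.23). On the main probe sets of all of these 4 genes HCT116 array 2 was the lowest HCT116 array, though not on every probe set of BUB3. E1 array 1 lay below the HCT116 mean on these main probe sets, with log2 differences from -0.50 to -0.29.

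In the APC/C and anaphase group, UBE2S gave the most extreme values of all 43 genes. UBE2S, the enzyme that extends ubiquitin chains on APC/C substrates, read 4287, 3055 and 4569 in HCT116 and 3542, 121 and 5.72 in E1. E1 array 1 lay inside the HCT116 range, and the other E1 arrays read far below every HCT116 array. The log2 difference was -3.85 (SE 1.53, adjusted p = 0.318), or -0.14 with E1 array 1 alone. UBE2S had 1 probe set. UBE2C, the enzyme that starts those chains, read 1736, 862 and 1755 in HCT116 and 1482, 1918 and 1157 in E1, at 0.10 (SE 0.33), or 0.099 with E1 array 1 alone.

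CDC20, the activator of the APC/C and the target of the checkpoint, read 2368, 808 and 2451 in HCT116 and 1003, 1948 and 581 in E1. Its log2 difference was -0.66 (SE 0.57, adjusted p = 0.649), or -0.72 with E1 array 1 alone, and HCT116 array 2 lay among the E1 arrays. PTTG1, which encodes securin, read 1983, 1281 and 2907 in HCT116 and 1900.4, 3503 and 2378 in E1, at 0.36 (SE 0.35, adjusted p = 0.698), or -0.036 with E1 array 1 alone. The probe set of PTTG1, like those of 21 other members, has an identifier that ends in _s_at or _x_at, which marks probes that may bind more than 1 transcript.

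Centromere and kinetochore genes split in sign. CENPA, the centromeric histone H3 variant, read 354, 242 and 409.5 in HCT116 and 241, 241 and 221 in E1. All E1 arrays lay below all HCT116 arrays, though E1 arrays 1 and 2 lay close to HCT116 array 2, and the log2 difference was -0.44 (SE 0.20, adjusted p = 0.371), or -0.40 with E1 array 1 alone. NDC80, the microtubule-binding subunit of the kinetochore, read 228, 153 and 245 in HCT116 and 83.0, 392 and 180.0 in E1, so that E1 arrays lay on both sides of HCT116 and the difference was -0.12 (SE 0.46), or -1.04 with E1 array 1 alone. CENPF, a large kinetochore protein, read 471, 252 and 460.2 in HCT116 and 429, 678 and 396 in E1, at 0.33 (SE 0.30), or 0.16 with E1 array 1 alone. The kinesin-like motor CENPE stood at 0.31 (SE 0.32), the kinetochore scaffold ZWINT at -0.059 (SE 0.46) and BIRC5, which encodes survivin, at -0.034 (SE 0.29). On E1 array 1 the values were 0.49, -0.64 and 0.074. CENPE was the 1 member that E1 array 1 read above all 3 HCT116 arrays, at 114 against 46.9 to 103.

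The mitotic kinesins showed differences from -0.28 to 0.29, each smaller than its HCT116 range. KIF11, which pushes spindle poles apart, stood at 0.10 (SE 0.38), KIF23 of the central spindle at 0.22 (SE 0.39), KIF20A, a motor of cytokinesis, at 0.29 (SE 0.49), the chromosome-bound KIF4A at 0.14 (SE 0.38) and the microtubule depolymerase KIF2C at -0.28 (SE 0.31). With E1 array 1 alone all 5 were below 0, from -0.51 (KIF23) to -0.086 (KIF20A), with a median of -0.38. On E1 array 2 their median was 0.80.

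Genes of spindle assembly and cytokinesis were alike. ECT2, the exchange factor that activates RhoA for the cleavage furrow, read 426, 280.1 and 501 in HCT116 and 331, 676 and 555 in E1, a log2 difference of 0.33 (SE 0.31, adjusted p = 0.688). DLGAP5 and HMMR, which bind spindle microtubules, stood at 0.31 (SE 0.49) and 0.30 (SE 0.38). NUSAP1 stood at 0.0085 (SE 0.32), the midzone crosslinker PRC1 at -0.0059 (SE 0.38) and TPX2, the activator of AURKA, at -0.49 (SE 0.35). All 6 of these genes were below the HCT116 mean on E1 array 1, from -0.46 (PRC1) to -0.12 (HMMR).

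The transcription factors MYBL2 and FOXM1, and MKI67, were below the HCT116 mean on every E1 array. So were CCNF, CDC25B, AURKB, PLK1, UBE2S and CENPA. For MYBL2, FOXM1 and MKI67, on the probe set that stood for each, E1 array 1 alone was more than 1 lower on the log2 scale. That also held for CCNA2 (-1.09) and NDC80 (-1.04). MYBL2 read 589, 291 and 664 in HCT116 and 178, 148 and 42.8 in E1. No arrays overlapped, and the log2 difference was -1.87 (SE 0.47, unadjusted p = 0.00576, adjusted p = 0.185), with -1.31 for E1 array 1 alone. FOXM1 read 674, 191 and 551 in HCT116 and 185, 289 and 114 in E1, a log2 difference of -1.06 (SE 0.49, adjusted p = 0.375) and the same value with E1 array 1 alone. HCT116 array 2 lay among the E1 arrays for FOXM1. Over the alternatives that were tried, the adjusted p of MYBL2 was never below 0.0505 and that of FOXM1 never below 0.248.

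MKI67, the Ki-67 protein that coats mitotic chromosomes, had a log2 difference below 0 in all of its 4 probe sets. The probe set that stood for it read 804, 263 and 676 in HCT116 and 214, 289 and 144 in E1, a log2 difference of -1.22 (SE 0.43, adjusted p = 0.284), or -1.18 with E1 array 1 alone. The others stood at -0.85, -0.97 and -1.14, and at -0.54, -0.94 and -0.74 with E1 array 1 alone. HCT116 array 2 was again near the E1 arrays, at 263, and without it the difference was -1.68 (SE 0.29, adjusted p = 0.194). TOP2A, topoisomerase II alpha, which untangles sister chromatids, went the other way on its main probe set. It read 746, 254 and 646 in HCT116 and 534, 1206 and 600.5 in E1, a log2 difference of 0.52 (SE 0.46, adjusted p = 0.667), or 0.089 with E1 array 1 alone.

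**Figure D4:**
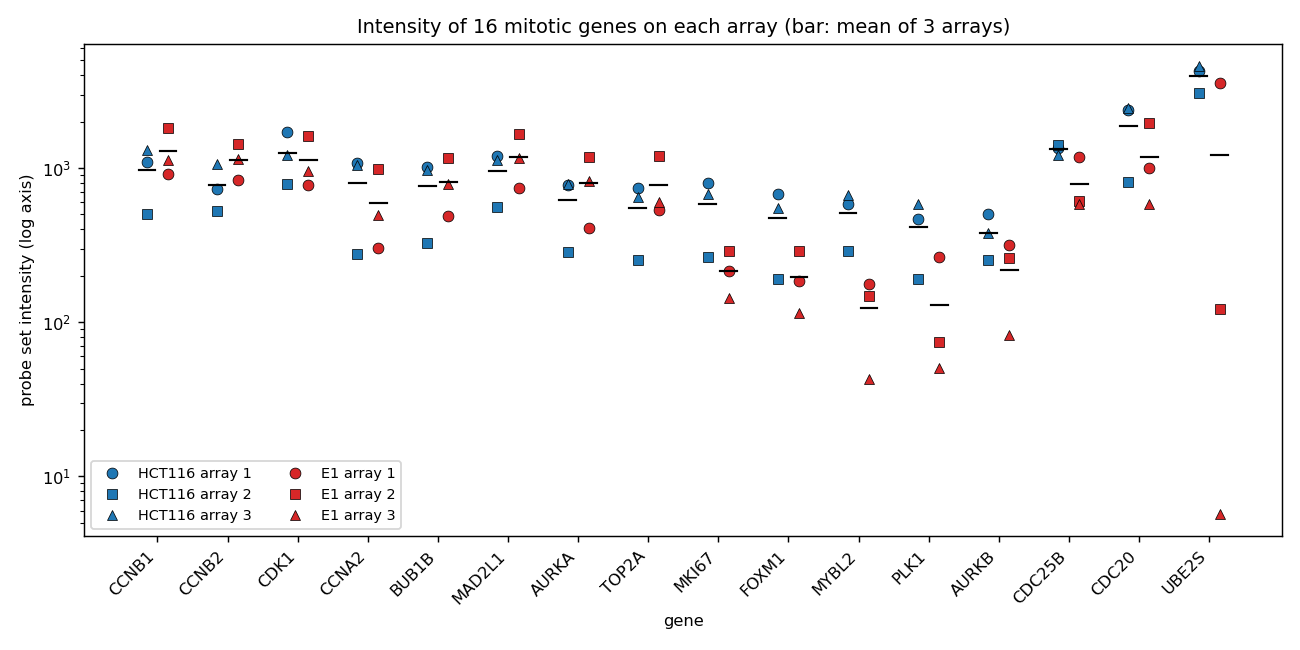
Probe set intensity on a log axis for 16 mitotic genes on each array (blue HCT116, red E1; circles array 1, squares array 2, triangles array 3; bars are the mean of 3 arrays). The HCT116 square is the lowest blue symbol for every gene drawn except CDC25B, and the red symbols of UBE2S span 5.72 to 3542.

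A fit without E1 array 1, in which the arrays of high GAPDH ratio alone represented E1, called 3 of 43 members (6.98%), all lower, against 8.97% of all genes in either direction and 7.33% lower. They were UBE2S at -5.70 (adjusted p = 0.0048), PLK1 at -2.12 (adjusted p = 0.0429) and CDC25B at -1.11 (adjusted p = 0.00984). Leaving out any other array, and each other alternative with all arrays, called 0 members. For UBE2S, PLK1 and CDC25B the values of E1 array 1 alone were -0.14, -0.46 and -0.17. The part of the high GAPDH ratios in these 3 calls was not tested.

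Different probe sets of 1 gene did not always give the same reading. The 43 genes had 70 probe sets, and 15 genes had more than 1. In a fit over single probe sets none of the 70 was called, against 0.871% of all 19065. At an unadjusted p under 0.05 there were 14 of 70, against 16.8% of all probe sets. Lower in E1 at that level were 13 of 70 (18.6%), against 12.1% of all probe sets. Thus 13 of the 14 were lower, as were 2300 of the 3208 probe sets at that level over all genes. The 14 stood for 11 members, and MKI67 supplied 4 of the 13. For 7 of the 15 genes (BUB1, BUB3, CDC25C, CDK1, CENPF, NUSAP1 and TOP2A) probe sets differed in sign.

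BUB1 showed the widest split. Its main probe set read 272 to 849 in E1 and 234 to 542 in HCT116, whereas a second read 344, 174 and 329 in HCT116 and 99.1, 8.96 and 2.44 in E1. The log2 difference of that second probe set was -2.41 (adjusted p = 0.118), or -1.21 with E1 array 1 alone, and the low signal of E1 arrays 2 and 3 was thus seen by 1 probe set of the gene and not by the other. The remaining BUB1 probe sets read at most 43.7 on any array, at -0.34, -0.023 and 0.0018. NUSAP1 read 1392, 736 and 1358 in HCT116 and 841, 1525 and 1106 in E1 on its main probe set, and 1279.9, 679.8 and 1059.7 in HCT116 and 353, 604 and 234 in E1 on its other. The latter stood at -1.32 (adjusted p = 0.177), against 0.0085 on the main probe set. With E1 array 1 alone both were below 0, at -1.39 and -0.40.

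TOP2A split on E1 array 1. Its second probe set read 682, 294 and 498 in HCT116 and 207, 818 and 399.5 in E1, at -0.16 over all arrays. E1 array 1 alone gave -1.06 there, where the main probe set stood at 0.089. CDK1 had further probe sets of 977, 505 and 941 and of 1347, 485 and 985 in HCT116, and of 575, 1094 and 1129 and of 597, 1303 and 857 in E1. All of them overlapped between the lines.

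BUB3 read 3413, 2645 and 3388 in HCT116 and 2207, 3757 and 2967 in E1 on its main probe set, and the rest gave 0.0048, 0.068 and 0.13. On the first of these BUB3 read 679, 1002 and 745 in HCT116 and 491, 1026 and 1012 in E1, so that HCT116 array 2 was the highest HCT116 array there and the lowest on the main probe set. The BUB3 probe set at 0.068 also had HCT116 array 2 highest, with 890, 1236 and 1020 in HCT116. CENPF read 70.5, 40.3 and 33.6 in HCT116 and 87.5, 102 and 72.4 in E1 on another probe set, with no overlap, at 0.59 (adjusted p = 0.24). The last CENPF probe set read at most 16.3 on any array. CDC25C read 193, 139 and 157 in HCT116 and 136, 267 and 150.4 in E1 on its main probe set. Another CDC25C probe set read 58.3, 39.4 and 42.8 in HCT116 and 39.4, 6.29 and 24.4 in E1, at -0.55, and the last read at most 32.3. Among genes without a change of sign, CCNF read 220.1, 78.6 and 234 in HCT116 and 65.7, 26.8 and 2.37 in E1 on its second probe set, at -1.74, and KIF2C and BIRC5 had probe sets at -1.10 and -1.28.

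**Figure D5:**
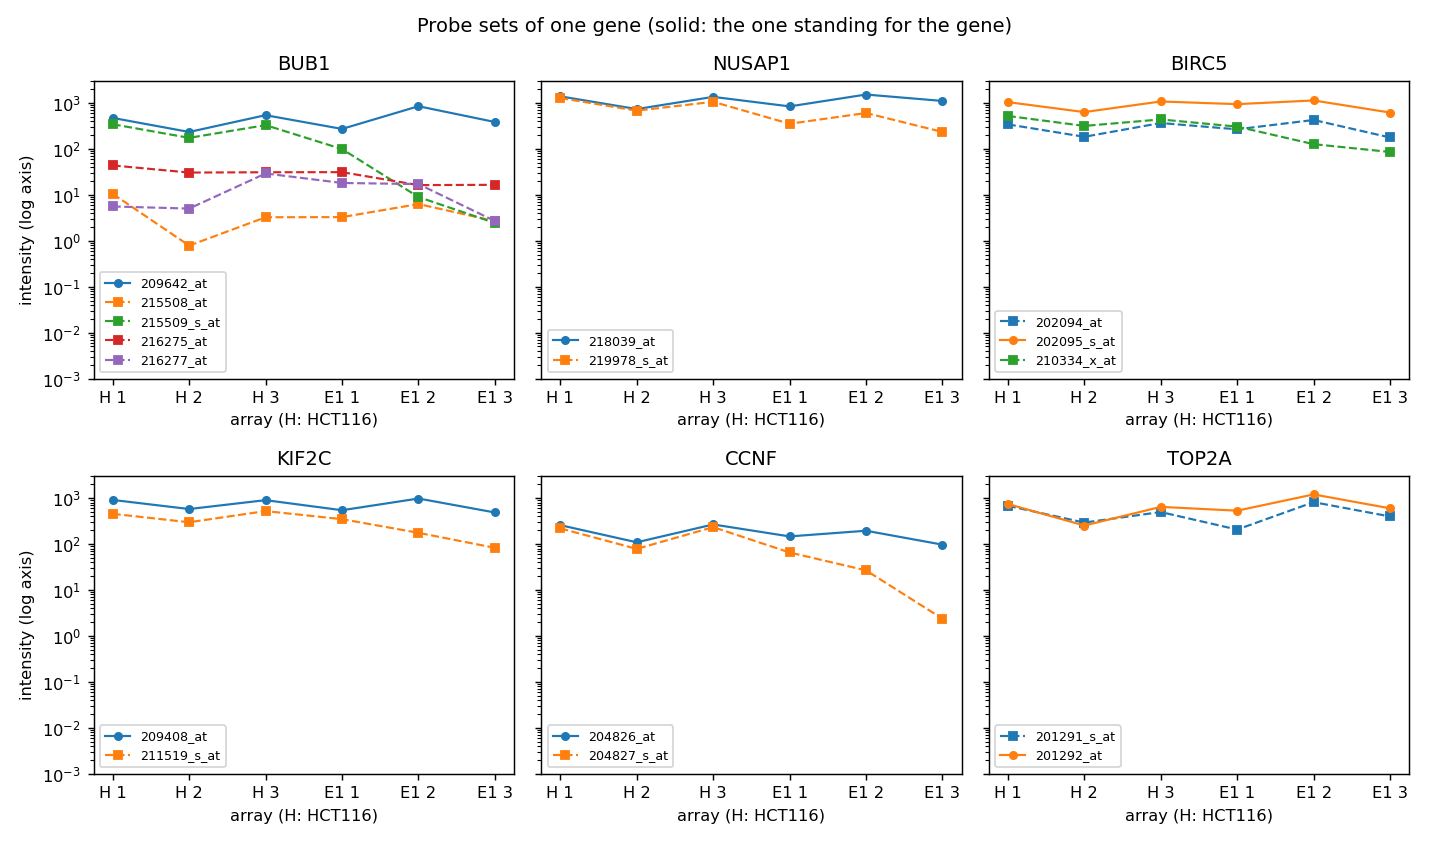
Intensity on a log axis of each probe set of 6 mitotic genes on the 6 arrays (H is HCT116; solid lines mark the probe set that stands for the gene; lines join the readings of 1 probe set and imply no order). For BUB1 and CCNF a probe set ends at 2.44 and 2.37 on E1 array 3 while another probe set of the gene reads 385 and 97.2.

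Members with and without CHR letters near the start had overlapping ranges of differences. The 19 genes with CHR letters in the 50 bases before the start had a median log2 difference of 0.099, from -1.57 to 0.56, and the 17 genes with an entry but none there 0.18, from -3.85 to 0.52. The gap of HCT116 array 2 below the other HCT116 arrays had a median of -0.89 in the first set and -0.81 in the second. PLK1 and MKI67, printed above with CHR letters at -29, stood at -1.57 and -1.22, and CCNB1 and CCNB2, with such letters at -30 and -29, at 0.44 and 0.56.

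Outside the 43 genes, 138 of 155 listed cell cycle genes were measured, none was called in limma, and 26 (18.8%) had an unadjusted p under 0.05, 8 higher and 18 lower in E1. Over all genes the share at that level was 15.0%, with 5.29% higher and 9.70% lower, and the counts of each list below stand against these shares. Among 10 measured APC/C genes, 2 were lower at that level, the co-activator FZR1 at -1.43 (SE 0.40) and the cullin subunit ANAPC2 at -1.21 (SE 0.38), with -0.58 and -0.44 for E1 array 1 alone. Of 18 cohesin, condensin and separase genes 1 was higher, the condensin subunit NCAPD2 at 0.91 (SE 0.35), and 1 lower, NCAPH2 at -1.36 (SE 0.44). E1 array 1 alone placed them at 0.94 and -0.38. Of 26 other kinetochore and centromere genes 3 were lower. They were ZW10, of the complex that recruits dynein and MAD proteins, at -0.61 (SE 0.16), INCENP, the passenger complex scaffold, at -1.41 (SE 0.50), and CENPB at -1.27 (SE 0.48). With E1 array 1 alone ZW10 stood at -0.61, INCENP at -0.29 and CENPB at -0.18. Of 23 other spindle and cytokinesis genes the microtubule polymerase CKAP5 was higher, at 0.42 (SE 0.16), or 0.33 with E1 array 1 alone.

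Among 15 genes of cell cycle transcription, 3 were higher and 3 lower by an unadjusted p under 0.05, where 5.29% of all genes were higher and 9.70% lower. NFYA, a subunit of NF-Y, averaged 228 ± 32.7 (SD, n = 3) for HCT116 and 385 ± 15.6 (SD, n = 3) for E1, a log2 difference of 0.69 (SE 0.15, adjusted p = 0.144), or 0.65 with E1 array 1 alone. The other NF-Y subunits split in sign, with NFYB at 0.38 (SE 0.14) and NFYC at -0.87 (SE 0.34). E1 array 1 alone placed NFYB at 0.19 and NFYC at -0.084. E2F1, an activator of G1/S genes, stood at -0.73 (SE 0.23), and E2F4, of the repressive DREAM complex, at -1.07 (SE 0.33), with -0.55 and -0.32 for E1 array 1 alone. Of 21 cyclins, CDKs and inhibitors 3 were higher and 4 lower, led by CCNG2 at 0.94 (SE 0.22), the CDK inhibitor CDKN1B at 0.76 (SE 0.20) and CDKN2D at -0.94 (SE 0.25). From E1 array 1 alone the values were 0.68, 0.49 and -0.37. None of these passed over all genes.

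Replication genes, which are expressed earlier in the cycle, shared the low HCT116 array 2 with the mitotic genes and had lower medians in E1. HCT116 array 2 was the lowest HCT116 array for 25 of 25 measured, against 44.6% of all genes, with a median gap of -0.77. The 25 genes had a median log2 difference of -0.35, 22 below 0 (against 50.9% of all genes), where the 43 mitotic genes had 0.0085. With E1 array 1 alone the medians were -0.80 and -0.37, and on the mean of E1 arrays 2 and 3 they were -0.17 and 0.23. At an unadjusted p under 0.05, 5 of the 25 were lower and 0 higher, against 9.70% and 5.29% of all genes. They were led by MCM5 at -1.60 (SE 0.36) and MCM4 at -1.43 (SE 0.35) of the replication helicase and the licensing factor CDT1 at -2.06 (SE 0.49). MCM5, MCM4 and CDT1 had E1 array 1 values of -1.20, -1.04 and -0.89. Whether the lists differ from each other was not tested.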

How the data were processed

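Biotin-labelled total RNA of both lines, extracted with Trizol per the labels, was read on 6 Affymetrix arrays. The values deposited by the authors are 1 linear intensity per probe set and array (22283 probe sets). How probes were summarized, background-corrected and scaled is not given in the sources used here.

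Probe sets were named from the platform annotation: 19065 carried 1 symbol, 1043 several and 2107 none, and 68 were controls. Genes were represented by their probe set with the highest mean, giving 11963 genes. Intensities plus an offset of 32 were taken to log2 without further normalization, which understates differences of dim genes. The test between lines was the moderated test of limma (version 3.58.1, R version 4.3.3) with Benjamini-Hochberg adjustment over all genes, and a gene was called at an adjusted p under 0.05. The code was tested on simulated data. The number of arrays, 3 per line, limits the precision.

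The members and lists were chosen with earlier results of these data known. Values on every array are given for the 8 lowest and 6 highest members by log2 difference, every member with an unadjusted p under 0.05, members whose probe sets differ in sign, and well-known members of each role. Of each other list, up to 3 genes with the smallest unadjusted p under 0.05 are named, and NFYB and NFYC are named besides.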

Additional observations from a re-analysis of the deposited data

How the results depend on the processing

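No member was called under any alternative except without E1 array 1, where 3 were. The median log2 difference of the 43 genes moved by less than its spread between arrays, which was 0.52. That spread came from the same arrays, so it cannot show that the median was stable. With all arrays the median was 0.0085, and with E1 array 1 alone it was -0.37. Over all genes, 50 calls became 10 with an offset of 100, 8 without _x_at and _s_at probe sets (8369 genes tested, 26 members measured), 2 with E1 array 1 alone, 2 with the GAPDH ratio as a covariate and 2 with the replicate number as a block. Leaving out each array in turn gave 2 to 1073 calls over all genes and 0 to 3 among the members. The labels number the arrays but do not say whether equal numbers mark pairs. Deviations of same-numbered arrays correlated at -0.056, -0.363 and -0.116. These values cannot decide the question, because the GAPDH ratio differed widely among the E1 arrays and not among those of HCT116. The block called 0 members. Subtracting array medians moved the median of all genes from -0.0055 to 0.14. The cause of these changes was not tested.

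The sign of small differences depended on the processing. After quantile normalization, the sign turned for TTK (0.10), NDC80 (0.027), BIRC5 (0.019) and PRC1 (0.047). With array medians subtracted, the sign turned for CDK1 (0.00088), TTK (0.15), BUB3 (0.046), NDC80 (0.029), ZWINT (0.090), BIRC5 (0.12) and PRC1 (0.14). With an offset of 1, the sign turned for TTK (0.0036). When all probe sets of a gene were averaged, the sign turned for CDK1 (0.021), CDC25C (-0.10), BUB1 (-0.52), BUB3 (0.025) and NUSAP1 (-0.66). Without _x_at and _s_at probe sets, the sign turned for CDK1 (0.20) and CENPF (-0.096). With E1 array 1 alone, the sign turned for CKS1B (-0.19), CDC25C (-0.21), AURKA (-0.44), NEK2 (-0.23), BUB1 (-0.48), BUB1B (-0.48), MAD2L1 (-0.29), PTTG1 (-0.036), BIRC5 (0.074), KIF11 (-0.38), KIF23 (-0.51), KIF20A (-0.086), KIF4A (-0.26), NUSAP1 (-0.40), ECT2 (-0.23), DLGAP5 (-0.27) and HMMR (-0.12). With the GAPDH ratio as a covariate, the sign turned for CKS1B (-0.17), CDC25C (-0.14), AURKA (-0.38), NEK2 (-0.17), BUB1 (-0.37), BUB1B (-0.42), MAD2L1 (-0.23), BIRC5 (0.15), KIF11 (-0.30), KIF23 (-0.45), KIF4A (-0.16), NUSAP1 (-0.35), ECT2 (-0.19), DLGAP5 (-0.17) and HMMR (-0.039). Leaving out each array in turn turned the sign at least once for CCNA2 (-0.95 to 0.034), CDK1 (-0.45 to 0.12), CDC25C (-0.15 to 0.27), AURKA (-0.080 to 0.78), NEK2 (-0.044 to 0.43), TTK (-0.43 to 0.27), BUB1 (-0.26 to 0.51), BUB1B (-0.35 to 0.46), BUB3 (-0.29 to 0.093), MAD2L1 (-0.036 to 0.60), UBE2C (-0.23 to 0.28), NDC80 (-0.60 to 0.34), ZWINT (-0.50 to 0.23), BIRC5 (-0.27 to 0.20), KIF11 (-0.21 to 0.36), KIF23 (-0.088 to 0.59), KIF20A (-0.22 to 0.64), KIF4A (-0.19 to 0.33), NUSAP1 (-0.28 to 0.21), PRC1 (-0.36 to 0.22), DLGAP5 (-0.13 to 0.64) and HMMR (-0.041 to 0.52).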
